A study of Orestias ascotanensis with 42 samples.

Results

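The genes described here were the muscle-enriched genes of Orestias ascotanensis, a killifish of the high Andes. A gene was a member if its mean level in muscle, after adding 0.5, was at least 4 times its mean level in gills and at least 4 times its mean level in skin. The members were thus chosen by their mean levels in the 3 tissues. Levels were CPM, the count of a gene scaled to a common library total, and each mean was taken over the 14 libraries of a tissue. The rule asked for up to 200 such genes with the highest muscle mean, but it left 102 of the 21024 genes in the deposited table, and all 102 are described. The tissue differences below are those same values and are given as a description, without a test.

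The fish were wild animals netted in the Ascotán salt pan at 3740 m, 7 of them in July 2019 (southern winter) and 7 in January 2020 (southern summer). Gills, skin and muscle were taken from each fish, so that 42 libraries of poly-A RNA formed 6 groups of 7. No age, sex or genotype was used, and no fish received a treatment. Each season was sampled once, so season cannot be told apart from the year or the collection. Libraries are named by tissue, season and fish number: number 4 in summer is the same fish in all 3 tissues, and a different fish from number 4 in winter.

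Skeletal muscle makes its force by sliding actin filaments past myosin filaments, under the control of calcium that the sarcoplasmic reticulum releases and takes back. In fish most of the trunk muscle is fast white muscle, which draws on creatine phosphate and glycolysis, and its RNA is dominated by a small number of transcripts for contractile, calcium-binding and glycolytic proteins. The skin lies directly over this muscle, and the gill arches carry small muscles of their own. The files pair no identifier with a gene name. The members' roles therefore cannot be given, lists of contractile, calcium-handling and energy genes could not be matched, and each member is called by its identifier.

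The libraries differed in ways that bear on the members. Total counts lay between 28009075 and 154396513 in 41 of the 42 libraries, while muscle summer 4 held 6074371. Muscle summer 4 correlated with the other muscle libraries at a median r of 0.863 (log2 CPM across genes), and skin summer 3 and skin summer 4 with other skin libraries at 0.846 and 0.817. Every other library reached at least 0.925. There were 5 sets of libraries within a group whose counts were nearly identical, the largest being muscle summer 3, 5, 6 and 7. Their pairs differed by 2.86 to 72.8 times the variance that counting alone gives, against a median of 131 over all pairs within a group. Differences above counting noise do not show that these libraries come from separate fish, and a shared source cannot be told apart here. They are kept as separate samples, as labelled, and each n of 7 counts them so. The result after averaging them is given where it changes a call. In 4 libraries, gills summer 1, gills winter 7, muscle winter 4 and skin summer 7, the season tag differs from the season in the title, and the title was followed.

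The members were enriched in muscle, but most were not abundant there. Their muscle means ran from above 1000 CPM in 3 members and from 100 to 1000 CPM in another 3, through 10 to 100 CPM in 39 and 5 to 10 CPM in 22, to under 5 CPM in 35. Of the 20 genes with the highest muscle mean in the whole table, 2 were members. The other 18 were at least 4-fold higher in muscle than in gills but not than in skin. Of the first 100 genes, 3 were members, 58 passed the gills limit alone and 39 passed neither limit. The first member ranked 7 among all genes by muscle mean, the median member 7509 and the last 12700. In all, 675 genes were at least 4-fold above gills but not above skin. The choice also depended on scaling. TMM factors, which correct for library composition, had medians of 1.75 in gills, 1.23 in skin and 0.494 in muscle. With them 639 genes met the rule, all 102 members included, but 7 members were among the 200 most abundant of those. CPM is a share of a library's counts and not a level per length of transcript, so the order of members by CPM is not an order of molecules.

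**Figure D1:**
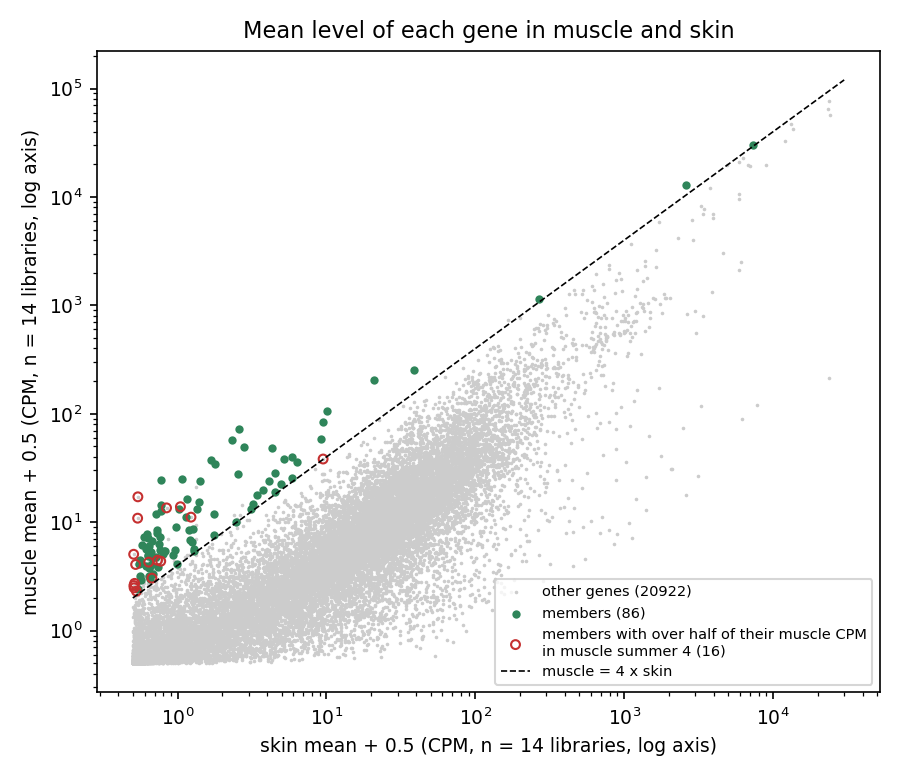
Mean level of every gene in skin (horizontal) and muscle (vertical), as CPM plus 0.5 over 14 libraries per tissue, on log axes; filled points are 86 members, open circles the 16 members with over 50% of their summed muscle CPM in muscle summer 4, and the dashed line marks 4 times the skin level. Only 3 members lie above 1000 CPM in muscle, and the other genes at that height fall to the right of the line.

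The ratio of muscle to skin ran from 4.03 to 31.9 with a median of 6.88, and it was under 6 in 37 members and at least 16 in 14. Against gills the ratio ran from 4.05 to 352 with a median of 7.95, under 6 in 26 members and at least 16 in 22. Skin was the closer of the other tissues for 64 members and gills for 38. Across the 102 members, the log2 mean level in muscle correlated with that in skin at r = 0.944 and with that in gills at r = 0.846, and skin correlated with gills at r = 0.854. These correlations are a description over genes whose tissues come from the same fish. No member was at 0 in all 14 libraries of any tissue, and 88 had a count in every muscle library, 70 in every skin library and 76 in every gills library.

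Values at the limits of the rule were close to those just outside it. The member with the lowest ratio to skin, OAV3G000014277, averaged 37.8 CPM in muscle and 8.99 in skin, a ratio of 4.03. Of its summed muscle CPM, 82.3% lay in 1 library, muscle summer 4. Its muscle median of 3.29 CPM was below its skin median of 4.35 CPM. The nearest gene outside, OAV3G000005689, averaged 19595 CPM in muscle and 4903 in skin and missed the limit at 3.996. Toward gills, OAV3G000015615 was just inside, with 12.8 CPM in muscle and 2.77 in gills, and OAV3G000002593 was just outside at a ratio of 3.95, with 2.89 and 0.358 CPM. The extremes of the skin share are described next to their library values below: skin held 24.6% of the muscle mean in OAV3G000006066 and 0.151% in OAV3G000016443.

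In muscle and skin, a pair of members took most of the members' counts. OAV3G000006066 averaged 30004.5 ± 12456 CPM in muscle (SD, n = 14), 7373 ± 5221 in skin and 84.8 ± 69.4 in gills. OAV3G000011488 averaged 12896 ± 5164 CPM in muscle, 2584 ± 1521 in skin and 77.9 ± 56.0 in gills. Together they held 88.4% to 96.3% of the members' counts in a muscle library, 91.6% to 98.9% in a skin library and 31.5% to 74.8% in a gills library. The third member by level, OAV3G000018840, averaged 1144 ± 405 CPM in muscle, 267 ± 117 in skin and 9.44 ± 6.05 in gills. The fourth, OAV3G000003195, averaged 252 ± 149, 38.2 ± 13.4 and 3.20 ± 1.62 CPM in the same order, and the fifth, OAV3G000018821, 205 ± 81.2, 20.3 ± 10.1 and 6.71 ± 1.68. From the first to the fifth of these the skin share of the muscle mean was 24.6%, 20.04%, 23.3%, 15.1% and 9.89%, and the gills share 0.283%, 0.604%, 0.825%, 1.27% and 3.27%. Thus all 5 were nearer to the muscle level in skin than in gills, by the least in the fifth.

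The fish differed in how many members met the rule. When the rule was applied to the 3 libraries of 1 fish at a time, 6 members met it in all 14 fish and 61 in at least 10, with a median of 10. OAV3G000018821 and OAV3G000015893, the latter at 37.2 ± 14.3 CPM in muscle, 1.17 ± 0.432 in skin and 0.281 ± 0.167 in gills, were among those meeting it in all 14. OAV3G000006066, the most abundant, met it in 9. Among summer fish 1 to 7 the number of members meeting the rule was 80, 82, 76, 91, 75, 79 and 78. Among winter fish 1 to 7 it was 78, 17, 36, 68, 78, 22 and 21, so that winter fish 2, 3, 6 and 7 met it for far fewer members than any summer fish. Applied to the libraries of 1 season, the rule left 79 genes in winter and 155 in summer, with 68 in common, 86.1% of the winter genes and 43.9% of the summer genes. Of the members, 31 met it in summer alone and 3 in winter alone, so more of them entered through summer levels than through winter levels. Without 1 summer library, muscle summer 4, 79 of the 102 members met the rule, and the 16 described below were among those that did not. Since these muscle libraries also chose the members, the balance of seasonal directions over the members is no support for a seasonal change of the group.

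A group of 16 members had most of their muscle counts in 1 library. In these, muscle summer 4, the shallowest of the 42 libraries, held 82.3% to 97.7% of the CPM summed over the 14 muscle libraries. They had 148 to 2642 counts there, or 24.4 to 435 CPM, and their median over the other 13 muscle libraries was at most 2.64 CPM. Without that library none of the 16 met the rule, and 12 of them met it in 1 fish only, summer fish 4. OAV3G000018673 had 140 CPM in muscle summer 4. In the other 6 summer muscle libraries, in order of fish number, it had 0.334, 0.119, 1.88, 0.861, 0.714 and 3.32 CPM, and in winter muscle 0.0659 to 0.373 CPM with a median of 0.174. OAV3G000016443 had 60.3 CPM in muscle summer 4, a median of 0.609 over the 7 summer libraries and 0 to 0.0348 in winter. OAV3G000018205, the member at rank 100 by muscle mean, had 27.0 CPM there and at most 0.328 in any other muscle library. Over all 16, the median of the other 6 summer libraries was 0.0584 to 2.55 CPM and the winter median 0 to 3.95 CPM. In 15 of the 16 the former lay above the latter. Most of those 6 libraries belong to the largest near-identical set, which thus weighs heavily on their median. The same count was not made over all genes, and it is no support for a seasonal difference. What sets muscle summer 4 apart was not tested. Applied without it, the rule left 82 genes, 79 of them members.

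**Figure D2:**
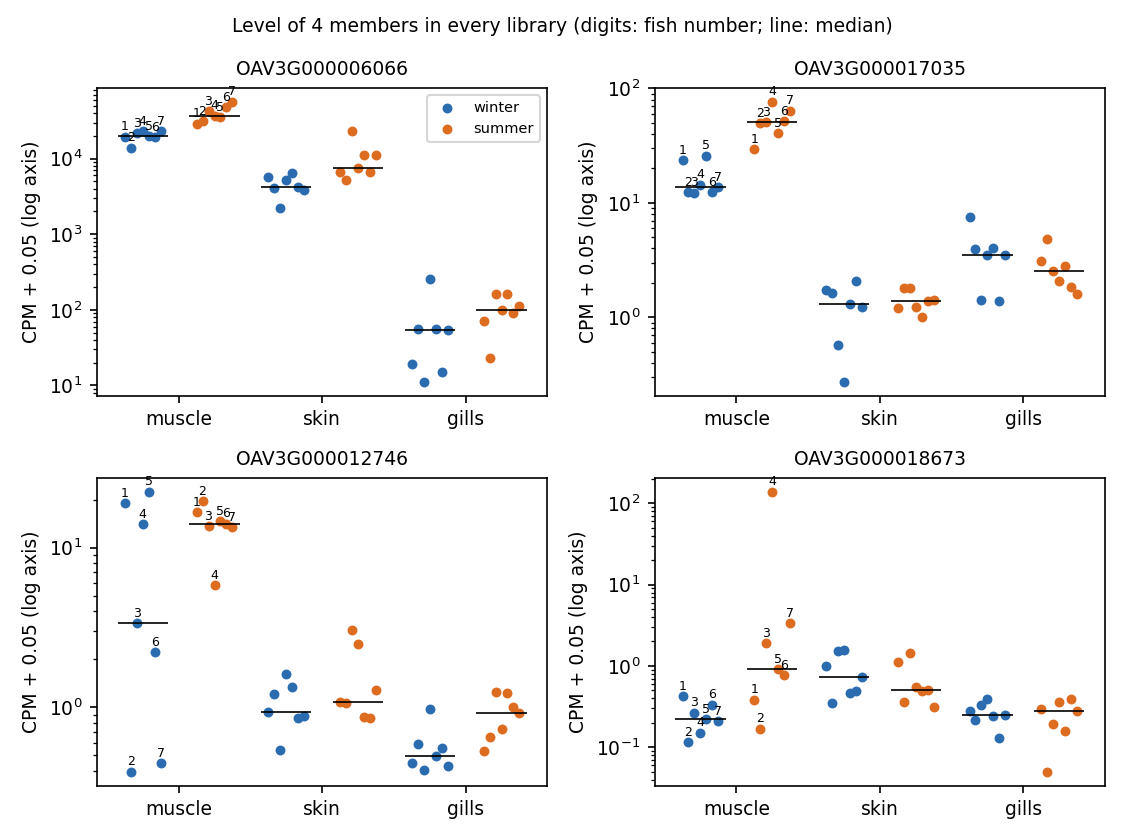
CPM plus 0.05 on a log axis in all 42 libraries for 4 members, winter in blue and summer in orange, with the fish number over the muscle points and the median of each group as a line. OAV3G000017035 does not overlap between seasons in muscle, OAV3G000012746 splits the winter muscle libraries between 0.346 and 22.4 CPM, and OAV3G000018673 is at 140 CPM in muscle summer 4 alone.

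Summed over all members, the share of muscle counts was higher in every summer library than in any winter library. It ran from 2.76% to 3.98% in winter muscle, with a median of 3.27% and a mean of 3.29% ± 0.450 (SD, n = 7). In summer muscle it ran from 4.18% to 7.92%, with a median of 6.14% and a mean of 5.90% ± 1.38. The first 2 members carried most of this difference: they held 3.01% ± 0.441 in winter and 5.57% ± 1.38 in summer. OAV3G000006066 alone held 1.39% to 2.29% of winter and 2.91% to 5.69% of summer muscle counts. That gene passed the skin limit at a ratio of 4.07, and without muscle summer 4 it fell just short of 4. The other 100 held 0.273% ± 0.0467 in winter and 0.332% ± 0.0805 in summer, with overlapping ranges of 0.215% to 0.362% and 0.239% to 0.473%. The 675 genes enriched over gills but not over skin went the other way in mean share, with 67.0% ± 3.54 of winter and 61.5% ± 3.70 of summer muscle counts. In whole tissue, fewer cells of a type and less RNA per cell cannot be told apart.

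In skin and gills the members took small shares, with 1 library far above the rest of its group in each. Skin shares ran from 0.329% to 1.056% in winter, with a median of 0.671%, and from 0.734% to 3.05% in summer, with a median of 1.16%. The groups overlapped. Skin summer 3, one of the libraries that stand apart, was the highest at 3.05%, and the genes enriched over gills alone also took more of its counts (41.4%) than in the other summer skin libraries, which lay between 18.7% and 32.3%. Gills shares ran from 0.00941% to 0.0628% in winter, with a median of 0.0189%, and from 0.0125% to 0.0407% in summer, with a median of 0.0302%. Gills winter 4 was the highest of all gills libraries, and 44 of the 102 members had their highest gills level in it. The genes enriched over gills alone took 2.496% of its counts, against 0.841% to 1.27% in the other winter gills libraries. Whether muscle tissue in those samples had a part in these shares was not tested.

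**Figure D3:**
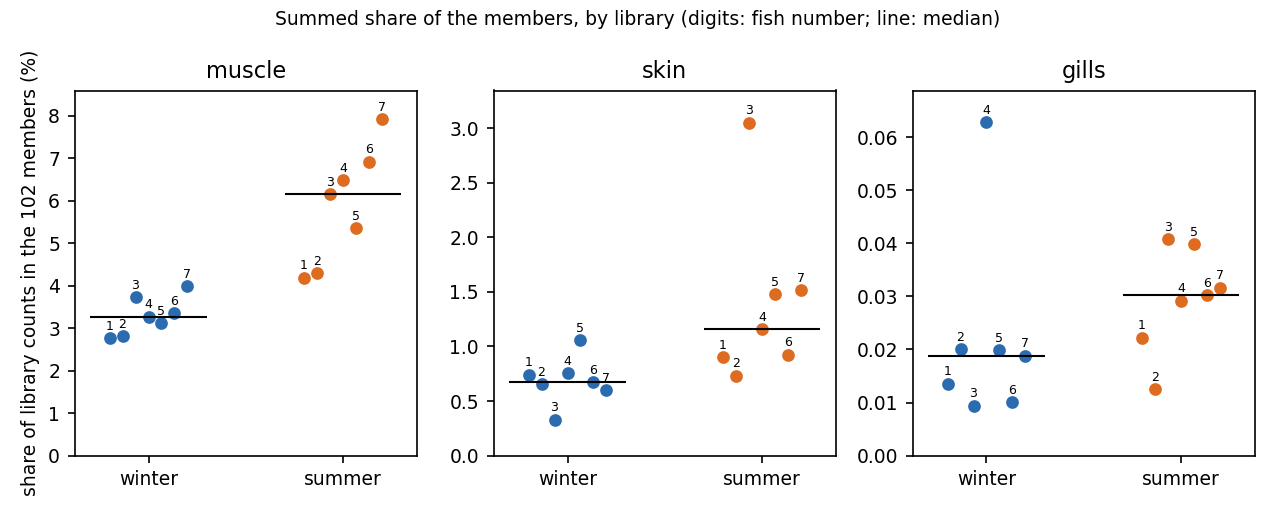
Share of each library's counts (percent) that the 102 members took, by tissue and season, with 1 point per library, the fish number above it and the group median as a line; the 3 panels have different scales, each starting at 0. All 7 summer muscle libraries (4.18% to 7.92%) lie above all 7 winter ones (2.76% to 3.98%), and skin summer 3 at 3.05% and gills winter 4 at 0.0628% lie above the rest of their groups.

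The season test in muscle was run on all genes, and the members' rows are given here. Of the 94 members that passed the filter on low counts, 14 rose in summer and none fell (edgeR's quasi-likelihood test, two-sided, adjusted p under 0.05 after Benjamini and Hochberg over all genes). Over all 17181 genes tested, 2.36% rose and 4.04% fell. The median log2 fold change, summer over winter, was 0.73 over the tested members and −0.01 over all genes, and it was positive in 84 members and negative in 10. Among the 68 members that met the rule in the libraries of each season, 8 rose and none fell, and the median was 0.59. At an unadjusted p under 0.05 there were 38 members, 37 of them higher in summer, while 10.3% of all genes were higher and 13.9% lower at that level. The 14 members that rose did so by 0.73 to 8.76 on the log2 scale, with adjusted p between 0.00438 and 0.0498 in edgeR's test. They ranked 12 to 78 by muscle mean, so none of the most abundant 11 was among them. Of the 14, 3 had most of their muscle CPM in muscle summer 4 and met the rule only with that library. The other 11 rose by 0.73 to 1.58, with a median of 1.064, and without muscle summer 4 the count was 15, of which 13 were among the 14. Not all of these 11 met the rule without that library, and OAV3G000015615 was among those that did not. The calls of such members reuse levels that chose them. The comparison gene set, the genes enriched over gills alone, had 33 rising and 37 falling among 671 tested, with a median of −0.10.

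**Figure D4:**
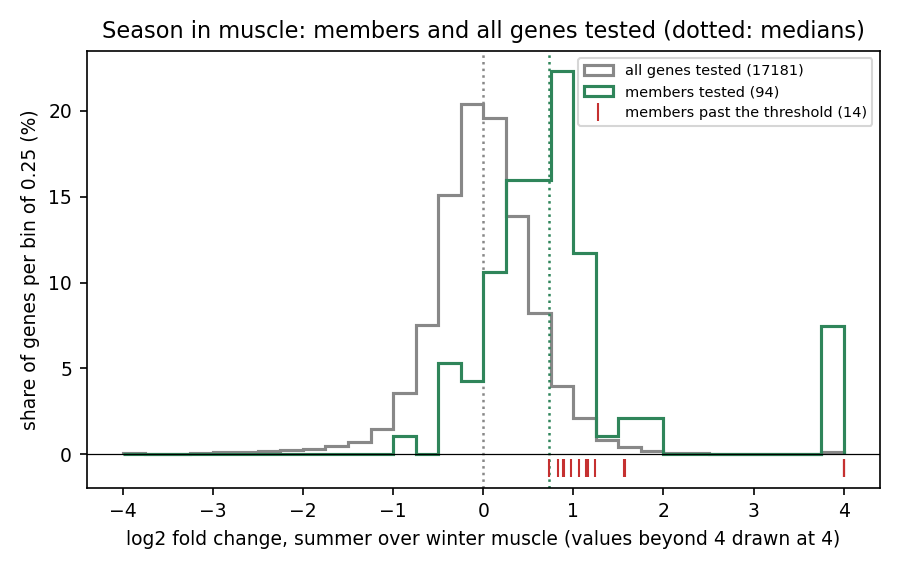
Distribution of the log2 fold change between summer and winter muscle for all 17181 genes tested (grey) and for the 94 members tested (green), as percent of genes per bin of 0.25, with medians dotted and the 14 members past the threshold as red ticks; values beyond 4 are drawn at 4. The members' median lies at 0.73 and that of all genes at −0.01.

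The count of 14 depended on single libraries and on counting near-identical libraries as separate fish. Averaging near-identical libraries, which leaves 4 summer muscle samples, left no member past the threshold and no gene of the table, with 28 members at an unadjusted p under 0.05 and a median of 0.76. DESeq2 called 19 members, all higher in summer, where it called 5.17% of all genes higher and 8.25% lower. Limma voom called 13, all higher, with 2.75% of all genes higher and 3.91% lower. Leaving out 1 summer library gave 5, 6, 5 and 4 members without summer 3, 5, 6 and 7, which are the near-identical set. Leaving out 1 winter library gave 6, 4 and 6 without winter 2, 6 and 7. Each of the other 7 removals gave 14 to 16. In every one of these fits no member fell, and the members' median stayed between 0.61 and 0.94. Taking the season of muscle winter 4 from its tag left 4 members, and scaling by column totals left 7.

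OAV3G000017035 showed the clearest seasonal difference. Its level, in CPM scaled for library composition, was 17.7, 14.2, 16.7, 10.8, 19.2, 16.4 and 21.3 in winter muscle of fish 1 to 7, and 27.8, 50.02, 50.3, 62.4, 40.1, 51.0 and 65.4 in summer muscle of fish 1 to 7. Every summer library lay above every winter library. The means were 16.6 ± 3.43 and 49.6 ± 12.8 (SD, n = 7 each), and the log2 fold change was 1.58 ± 0.20 (SE; adjusted p = 0.00438, edgeR). It was lost only when near-identical libraries were averaged, where the log2 fold change was 1.497 and the adjusted p 0.147. The gene averaged 3.10 ± 1.63 CPM in gills and 1.28 ± 0.490 in skin. It was 1 of 2 members whose muscle libraries did not overlap between seasons, higher in summer, where 0.832% of all genes tested did the same. No member was without overlap in the other direction, as 1.39% of all genes were.

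OAV3G000019418 had the second smallest p among members that rose. Its scaled level ran from 1.11 to 4.48 CPM in winter muscle and from 2.94 to 9.16 in summer, so that the groups overlapped. The means were 2.35 ± 1.096 and 5.55 ± 1.91, and the log2 fold change was 1.24 ± 0.29 (SE, n = 7 each; adjusted p = 0.0211, edgeR). Each of the 7 summer values exceeded the winter median. Its adjusted p was 0.0515 without muscle summer 6 and 0.0529 without muscle winter 6, 0.125 with column totals 0.182 with near-identical libraries averaged and 0.0558 with a replicate block on the fish number.

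None of the 5 most abundant members passed the threshold in muscle. OAV3G000006066 had 13909 to 22934 CPM in winter muscle, with a median of 19921, and 29094 to 56861 in summer, with a median of 36871. Its unscaled levels did not overlap, while its scaled levels did: 14767 to 35768 in winter against 27323 to 58259.5 in summer. The estimate was 0.81 ± 0.28 on the log2 scale (adjusted p = 0.0884, edgeR), and it passed with DESeq2 at 0.0108 and with column totals at 0.00650. OAV3G000011488 had a log2 fold change of 0.34 ± 0.37 (adjusted p = 0.611, edgeR) and OAV3G000003195 one of 0.98 ± 0.42 (adjusted p = 0.163, edgeR). For OAV3G000018840 and OAV3G000018821 the edgeR estimates were below 0, at −0.77 ± 0.36 (adjusted p = 0.195) and −0.33 ± 0.39 (adjusted p = 0.645). The 5 thus differed in sign, and none is shown to have changed.

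The winter fish varied more than the summer fish. The coefficient of variation of scaled CPM within winter muscle had a median of 67.2% over the 94 tested members, against 34.2% over all genes tested. Within summer muscle it was 29.0% over the members and 28.8% over all genes. Of the members, 76 varied more in winter and 18 in summer. Without muscle summer 4 the summer median was 24.2% over the members and 18.4% over all genes, with 88 members more variable in winter. With near-identical libraries averaged to 4 samples it was 33.2% over the members and 34.9% over all genes, again with 76 members more variable in winter. How many of all genes varied more in winter was not counted.

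In winter, low levels fell in the same fish for many members. In unscaled CPM, the median member stood at 9.998, 1.56, 2.44, 6.92, 12.7, 2.07 and 1.88 in muscle of winter fish 1 to 7. In muscle of summer fish 1 to 7 it stood at 7.90, 9.14, 6.21, 18.4, 6.69, 6.59 and 6.48. Scaled for library composition, the median tested member stood at 8.67, 1.90, 3.88, 5.84, 9.94, 3.12 and 3.50 CPM in winter fish 1 to 7. In summer fish 1 to 7 it was 7.92, 9.54, 7.07, 12.8, 6.95, 7.00 and 7.19 CPM. The spread over winter fish was narrower on that scale. Winter fish 2, 3, 6 and 7 were thus low and winter fish 1 and 5 high. Many other genes split the winter libraries in the same way, but in both directions. Winter 1, 4 and 5 all lay above winter 2, 3, 6 and 7 in 19.4% of all genes tested, and all below in 20.01%. Among the tested members the shares were 53.2% above and 8.51% below. The split was thus not limited to the members, while its direction was more one-sided among them. Since the split was read off the members' own levels in these libraries, that direction is a description and no support. Of the 94 tested members, 22, 69, 54, 46, 13, 65 and 62 lay below the lowest summer library in winter fish 1 to 7. Of all genes tested, 15.2% to 21.2% did so, and in winter fish 5 the members' share was no higher than theirs. Muscle summer 4 lay below every other summer muscle library in 45.2% of all genes tested and in 28 of the 94 members. It thus lowered that limit more often for all genes, and the shares are not on equal terms. OAV3G000012746 shows the low levels in winter fish 2, 3, 6 and 7, with 18.9, 0.346, 3.32, 14.0, 22.4, 2.16 and 0.398 CPM in winter muscle of fish 1 to 7 and 5.76 to 19.5 CPM in summer muscle. Across the 7 winter libraries the low levels did not follow the summed share, which was lowest in winter fish 1 at 2.76% and highest in winter fish 7 at 3.98%.

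**Figure D5:**
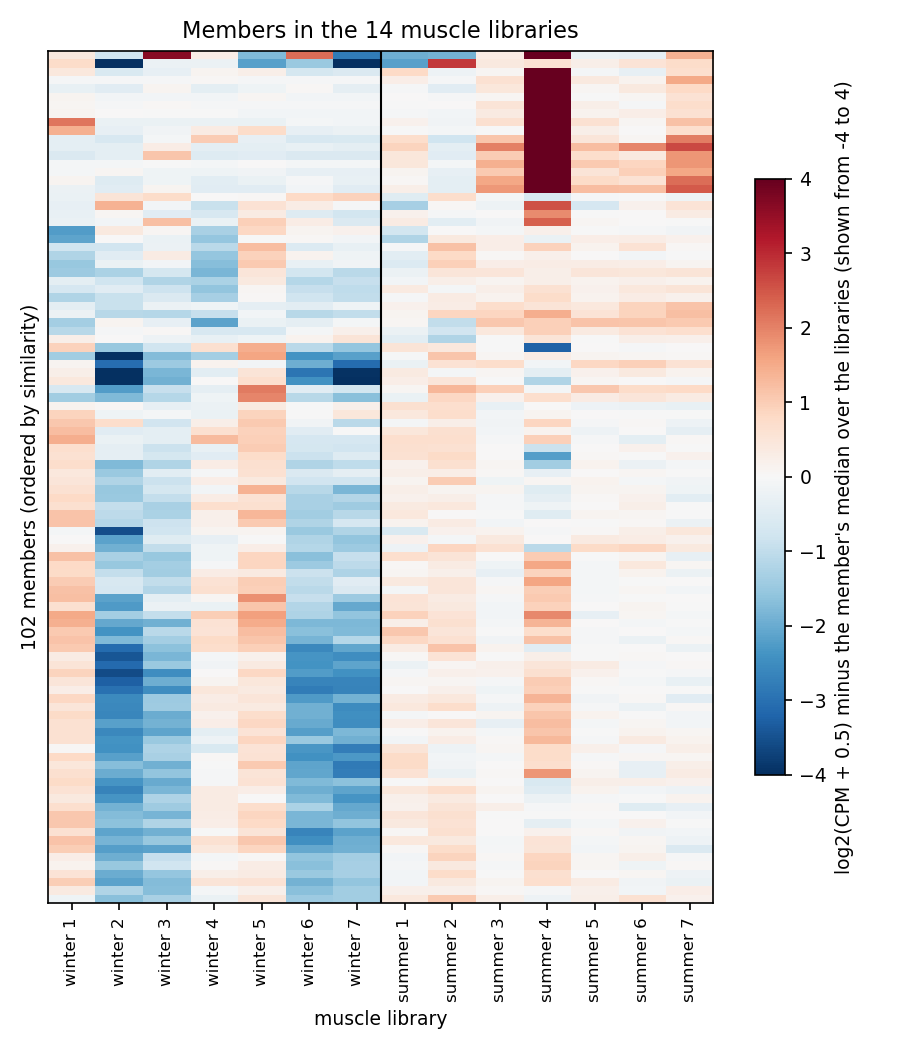
The 102 members (rows, ordered by similarity) in the 14 muscle libraries (columns), coloured by log2(CPM + 0.5) minus the member's median over the libraries, shown from −4 to 4. Winter fish 2, 3, 6 and 7 are blue over much of the lower part, winter fish 1 and 5 are not, and a band of members near the top is dark red in muscle summer 4 alone.

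By the mean of the 2 seasons, OAV3G000015893 had the lowest coefficient of variation, 33.3% in winter and 10.5% in summer. In winter alone OAV3G000017035 was lower, at 20.6%. The scaled level of OAV3G000015893 was 12.9 to 42.1 CPM in winter muscle and 37.0 to 50.7 in summer, with means of 27.4 ± 9.13 and 45.4 ± 4.78. OAV3G000015893 rose by 0.73 ± 0.20 on the log2 scale (SE, n = 7 each; adjusted p = 0.0387, edgeR). OAV3G000020068 had the highest in both seasons, 243% in winter and 255% in summer. It reached 177 CPM in muscle summer 4 and 1.09 in muscle winter 3, with medians of 0.700 in summer and 0.0144 in winter, and its adjusted p between seasons was 0.0686 in edgeR's test.

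In skin, no member passed the threshold between seasons. Of 80 members tested, 6 had an unadjusted p under 0.05 in edgeR's test, all higher in summer, where 9.21% of all 18260 genes were higher and 2.09% lower at that level. At the adjusted threshold 0.0% of all genes passed in either direction. In no member were the 2 groups of skin libraries without overlap, while 0.465% of all genes were wholly higher in summer and 0.334% wholly lower. DESeq2 called 1 member, with 58 genes higher and 7 lower in all, and limma voom called no gene. The members' median log2 fold change was 0.12. It was −0.11 with column totals, which move the median of all genes to −0.19. The smallest p belonged to OAV3G000006066, the gene called by DESeq2 at an adjusted p of 0.0172. It had 2221 to 6516 CPM in winter skin, with a median of 4183, and 5174 to 23204 in summer, with a median of 7563, so that the groups overlapped. Its scaled means were 4268 ± 1534 and 12699 ± 12336, a log2 fold change of 1.57 ± 0.45 (adjusted p = 0.438, edgeR), with skin summer 3 at 40017. Across the removals of 1 library the log2 fold change was 0.94 to 1.71.

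In gills, no member passed either. Of 72 members tested, 2 had an unadjusted p under 0.05, 1 of them higher in summer, where 6.08% of all 18409 genes were higher and 8.42% lower at that level. At the adjusted threshold 0.0% of all genes passed in edgeR's test. DESeq2 called no member, with 134 genes higher and 245 lower in all, and limma voom called no gene. No member was without overlap between the seasons, while 0.152% of all genes were wholly higher in summer and 0.538% wholly lower. The members' median was 0.03, and without gills winter 4 it was 0.26. The smallest p belonged to OAV3G000012746, at 0.358 to 0.923 CPM in winter gills (median 0.446) and 0.484 to 1.19 in summer (median 0.879). The groups overlapped, and the log2 fold change was 0.77 ± 0.27 (adjusted p = 0.231, edgeR).

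The seasonal difference itself was compared between tissues in a fit of all 42 libraries. Against gills, 97 members were tested. The summer-minus-winter difference was higher in muscle for 6 and lower for none, while 0.254% of all genes were higher and 2.06% lower. The median of the difference was 0.59 over the members and −0.08 over all genes. Of the 6, 5 had most of their muscle CPM in muscle summer 4. Those 5 met the rule only with that library, so their calls reuse the level that chose them and are no support for a seasonal difference. The sixth was OAV3G000017035, at 1.91 ± 0.45 (SE; adjusted p = 0.0146, edgeR). With the fish as a block, since each fish gave all 3 tissues, OAV3G000017035 alone passed, at 1.82 with an adjusted p of 0.0215. The smallest p belonged to OAV3G000000879, with a difference of 6.92 ± 1.36 (adjusted p = 0.00382, edgeR) that was 4.42 with an adjusted p of 0.0553 under the block. Without the libraries that stand apart, muscle summer 4 among them, it was 3.68 with an adjusted p of 0.00884. The gene had 50.2 CPM in muscle summer 4, a summer muscle median of 0.714, at most 0.165 in winter muscle and at most 0.193 in gills. In muscle it had 0.402 to 1.35 CPM in the near-identical summer 3, 5, 6 and 7, and 0.186 and 0 in summer 1 and 2. It did not pass the filter on low counts within muscle or within gills, so season was not tested there. OAV3G000011140 followed, with 5.88 ± 1.24 (adjusted p = 0.00694, edgeR) and 176 CPM in muscle summer 4. Its difference was 2.79 with an adjusted p of 0.136 under the block, and 2.09 with an adjusted p of 0.0660 without the libraries that stand apart.

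Against skin, the difference was higher in muscle for 8 of 97 members and lower for none, while 0.483% of all genes were higher and 4.35% lower. The median was 0.43 over the members and −0.11 over all genes. All 8 had most of their muscle CPM in muscle summer 4, and without it none of them met the rule. The level that made them members is thus also the level tested, and their count is no support for a seasonal difference. With the fish as a block 2 of them passed. Limma voom called none of them, with 14 members at an unadjusted p under 0.05 and 12 genes higher and 109 lower in all, and DESeq2 called 4, with 198 genes higher and 1398 lower. OAV3G000000879 had a difference of 6.27 ± 1.30 (adjusted p = 0.00387, edgeR) and OAV3G000018673 one of 6.30 ± 1.32 (adjusted p = 0.00448). Under the block the latter was 3.11 with an adjusted p of 0.0968. Without muscle summer 4, skin summer 3 and skin summer 4, 5 members passed, 3 of them among the 8. OAV3G000000879 was then at 3.69 (adjusted p = 0.00935, edgeR) and OAV3G000018673 at 3.21 (adjusted p = 0.0147, edgeR). In both, the summer muscle levels left above the winter range were mainly those of the near-identical summer 3, 5, 6 and 7. For OAV3G000000879, season was not tested within muscle, where it did not pass the filter on low counts. The comparisons with gills and with skin share the muscle libraries and are not independent.

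Between tissues of the same fish, deviations from the group mean of log2 level correlated, across members, at a mean r of 0.0365 for muscle and skin, −0.00661 for muscle and gills and 0.0974 for skin and gills. In each of these 3 pairs of tissues, the best match of a library was the same fish in 2 of 14 cases. The number that chance would give was not worked out, so these counts are no support for a likeness within a fish.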

How the data were processed

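Poly-A RNA from gills, skin and muscle was sequenced as unstranded pairs of 150 bp reads, per the labels' protocols. The authors deposited raw counts per gene for 42 libraries, and no column was left unmapped (0). Tools listed in the submitters' processing notes, with no role or order, are SAMtools 1.10, HISAT2 2.2.1, Trim Galore 0.6.6, FastQC and Cufflinks. Which genome build, annotation and counter were used is not given in the sources used here. Of the deposited counts from 1 to 10, 75.8% were even, as counting both mates would give, so counts were divided by 2 before libraries were set against counting noise. Reads of overlapping or antisense genes cannot be separated without strand, and genes sharing reads with near copies are uncertain.

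The members, lists and tests were chosen with earlier results of these data known. Season was tested within each tissue (14 libraries) and season by tissue over all 42, with edgeR 4.0.16 in R 4.3.3 (filterByExpr, TMM, robust quasi-likelihood, two-sided, Benjamini-Hochberg over all genes, threshold 0.05). Standard errors are the size of the log2 fold change over the square root of F. Scaled CPM uses TMM within the tissue. The code was tested on simulated data. DESeq2 1.42.0, limma 3.58.1 (voom), other scalings and filters, removal of single libraries, averaging of near-identical libraries (MAD of the log2 count ratio under 0.15) and removal of libraries that stand apart (median r under 0.88) were alternatives. P-values set a difference against the spread between these libraries. Where near-identical libraries share a source, that spread may understate the spread between fish. A number pairs the 3 tissues of 1 fish within a season, per the labels, and names different fish in the 2 seasons. Without names, the cell type markers and gene lists stayed unmatched.

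Named members were the 5 with the highest muscle mean, rank 100 (rank 200 does not exist), the genes at the limits, up to 2 called in each direction per comparison or else the smallest p, and the extremes of variation and of the skin share.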

Additional observations from a re-analysis of the deposited data

Results flagged for a closer look

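Of 36 groups of 7 libraries looked at, 14 had 1 library whose distance to its nearest neighbour took more of the group's range than Dixon's 95% critical value allows. Chance gives this in about 1 of 20 groups of normally spread values. Most of the 36 groups were of named members, some of them named for extreme values in these data. That rate is thus no measure for them, and the 14 are only a list for a closer look. In muscle summer 4, 6 members stood apart in this way: OAV3G000018205 at 27.0 CPM, OAV3G000000879 at 50.2, OAV3G000011140 at 176, OAV3G000018673 at 140, OAV3G000020068 at 177 and OAV3G000016443 at 60.3. It is the shallowest library, and the 6 values are not separate observations. Among summed shares of the members, gills winter 4 stood apart at 0.0628% and skin summer 3 at 3.05%. Among single members in winter muscle, OAV3G000006066 was low in winter 2 at 13909 CPM, OAV3G000011140 high in winter 4 at 1.53, OAV3G000020068 high in winter 3 at 1.09 and OAV3G000015893 high in winter 5 at 56.6. In summer muscle, OAV3G000018840 was high in summer 2 at 1601 CPM and OAV3G000015893 low in summer 1 at 39.4.

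Among the named members, 5 had a difference between seasons that itself differed between tissues, by edgeR's test of that difference, in log2 units. It was higher in muscle than in gills by 1.91 for OAV3G000017035, 6.92 for OAV3G000000879, 5.88 for OAV3G000011140, 6.30 for OAV3G000018673 and 6.19 for OAV3G000020068. It was higher in muscle than in skin by 6.27 for OAV3G000000879, 4.87 for OAV3G000011140, 6.30 for OAV3G000018673 and 6.31 for OAV3G000020068. All of these but OAV3G000017035 had most of their muscle CPM in muscle summer 4, without which they did not meet the rule. Without the libraries that stand apart, OAV3G000017035 (1.91), OAV3G000000879 (3.68 and 3.69) and OAV3G000018673 (2.64 and 3.21) stayed past the threshold, and OAV3G000011140 (2.09 and 1.01) and OAV3G000020068 (1.61 and 1.80) did not. For OAV3G000000879 and OAV3G000018673 the remaining summer muscle levels were highest in summer 3, 5, 6 and 7, the near-identical set. They were 0.402 to 1.35 and 0.714 to 3.32 CPM there, and at most 0.186 and 0.334 in summer 1 and 2.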

How the results depend on the processing

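No count of members and no named member changed direction under the alternatives tried, while the members' median, near 0 in both tissues, reached −0.11 in skin with column totals and −0.02 in gills with the season from the tag. Of members past the threshold in muscle (14), 7 were left with column totals, 0 with near-identical libraries averaged and 4 with the season taken from the tag, and leaving out single libraries gave 4 to 16. With the replicate block on the individual number, which names different fish in the 2 seasons, it was 10, and OAV3G000006066 then had an adjusted p of 0.0427. In skin DESeq2 gave 1 in place of 0. For the seasonal difference of muscle against gills (6), limma voom gave 1, averaging near-identical libraries 3, the replicate block on the fish 1 and the season from the tag 3. Against skin (8), DESeq2 gave 4, limma voom 0, the replicate block on the fish 2 and removal of the libraries that stand apart 5. The causes of these moves were not tested, except that averaging leaves fewer samples. Of the members, 7 were among the first 200 genes of the rule with CPM scaled by TMM, 80 with tissue medians, 81 without the libraries that stand apart and 79 without muscle summer 4, the last chosen after seeing the data. Column totals moved the median of all genes to −0.19 in skin and to 0.19 in the difference between muscle and skin. Mean shares of counts moved by less than 1 SD. Low counts limit the members under 5 CPM, and 8 members were not tested between seasons in muscle.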
